A study of Branchiostoma belcheri with 3 samples.

Results

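The miRNA miR-22 was followed in 3 organs of Branchiostoma belcheri, an amphioxus. Amphioxus are marine filter feeders and invertebrate relatives of the vertebrates. Its members were all miRNA probes, of any species prefix, whose names carry miR and the number 22, which gave 12 of the 1686 miRNA probes on the array. The rule used the names and no density. The series holds 1 array each for the gill, the intestine and the hepatic caecum, a blind pouch of the gut, from adults taken from the sea bottom, kept in seawater and fed microalgae. The labels name no genotype, treatment or age beyond adult. RNA of 5 animals was mixed for each organ, so n = 1 per organ, no test between organs was possible, and organ and array cannot be told apart. Whole organs were sampled, so fewer cells of a type and less RNA per cell cannot be told apart either.

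A miRNA is cut from a hairpin as a short duplex, and either strand, called 5p or 3p after its side of the hairpin, can be loaded into the silencing complex. Bases 2 to 8 of the loaded strand, the seed, pair with target messages and largely set which messages are repressed. In mammals miR-22 acts chiefly through its 3p strand and is known from heart and skeletal muscle, lipid metabolism and blood cell formation. Nothing is taken from those roles for amphioxus organs here.

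The targets of the probes show which of them can read the same RNA. Of the 12, 3 carry Branchiostoma sequences, bbe for B. belcheri and bfl for B. floridae. The other 9 carry sequences of zebrafish (dre), the frog Xenopus tropicalis (xtr), sea lamprey (pma) and a sea urchin (spu). Genomic positions of the miR-22 genes were not analysed here. Shown first are the 7 targets with the 3p seed, printed 5′ to 3′ as the scanner files give them, with the seed in capitals.
bbe-miR-22-3p: aAGCUGCCagaugaagagcugu
dre-miR-22b: aAGCUGCCaguugaagagcugu
dre-miR-22a: aAGCUGCCagcugaagaacugu
pma-miR-22a-3p: aAGCUGCCaguugaagagcuau
pma-miR-22b-3p: aAGCUGCCaguugaagagcuga
xtr-miR-22-3p: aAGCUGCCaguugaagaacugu
spu-miR-22: cAGCUGCCcggugaaguguaua
The names of dre-miR-22a, dre-miR-22b and spu-miR-22 give no strand, and these probes were placed by their seed. Next come the 5p targets of both amphioxus species, shown because they read the opposite strand of the hairpin.
bbe-miR-22-5p: aGCUCUUCacucgguagcucug
bfl-miR-22-5p: aGCUCUUCaaacgguagcucug

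All 7 probes of the first set share the seed AGCUGCC. Counted from 1 at the 5′ end, with the bbe-miR-22-3p base first, dre-miR-22b differs by A11U alone. The frog probe xtr-miR-22-3p differs by A11U and G18A, and the zebrafish probe dre-miR-22a by A11C and G18A. The lamprey probes share A11U, joined by G21A in pma-miR-22a-3p and by U22A in pma-miR-22b-3p. The sea urchin target has 8 substitutions, of which 0 lie in the seed. On the 5p side bfl-miR-22-5p differs from bbe-miR-22-5p by C10A and U11A outside the seed. The 3 vertebrate 5p probes have other seeds and stand at 7 or 8 edits from the B. belcheri target. Probes this alike can bind the same miRNA, so the probes were not counted as separate genes, and which RNA each of them bound was not tested.

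Outside the members 1 probe, bfl-miR-4900b, shares the seed of miR-22-3p (uAGCUGCCuggcgaagaaugg, 7 edits from bbe-miR-22-3p). No probe outside the members came closer than 7 edits to either B. belcheri target. The densities of bfl-miR-4900b were 117 ± 6.8 in gill, 100 ± 11 in intestine and 159 ± 1.9 in hepatic caecum (SD of 2 spots), below the threshold of each array.

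Density, the median brightness of a spot in scanner units, was read from 2 repeat spots per probe. Errors below are SDs of these 2 spots, which cover neither animals nor arrays. A probe counted as detected when the mean of its spots lay more than 3 SDs above that of the 304 blank spots, a threshold of 139 in gill, 220 in intestine and 618 in hepatic caecum. The hepatic caecum array was read with its grid turned by 180 degrees, because its 596 control spots then correlated with those of the other arrays (r = 0.976 on the log2 scale, against 0.261 as deposited). With the rows mirrored instead, that r was 0.969, but the r of the miRNA spots was -0.00, against 0.83 in the turned grid. Under the deposited names 0 of the 12 probes were detected there, with densities from 154 to 295. Probe brightness depends on binding as well as on RNA amount, so the order of probes within an array is an order of spots, not of molecules.

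The B. belcheri 3p strand was bright in every organ. The 2 spots of bbe-miR-22-3p read 21666 and 21112 in gill, 5916 and 5822 in intestine, and 7285 and 7749 in hepatic caecum. Gill was highest, hepatic caecum next and intestine lowest. Most probes were dimmer outside gill. Without normalization between arrays, 154 of the 197 probes detected in both were lower in intestine, and 104 of 117 in hepatic caecum. Within its own array the probe stood at rank 45 of 1686 in gill, 40 in intestine and 27 in hepatic caecum, so that 97.4%, 97.7% and 98.5% of all miRNA probes were at or below it. The order of the raw densities and the order of the ranks therefore differed, gill being first by density and last by rank.

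**Figure D1:**
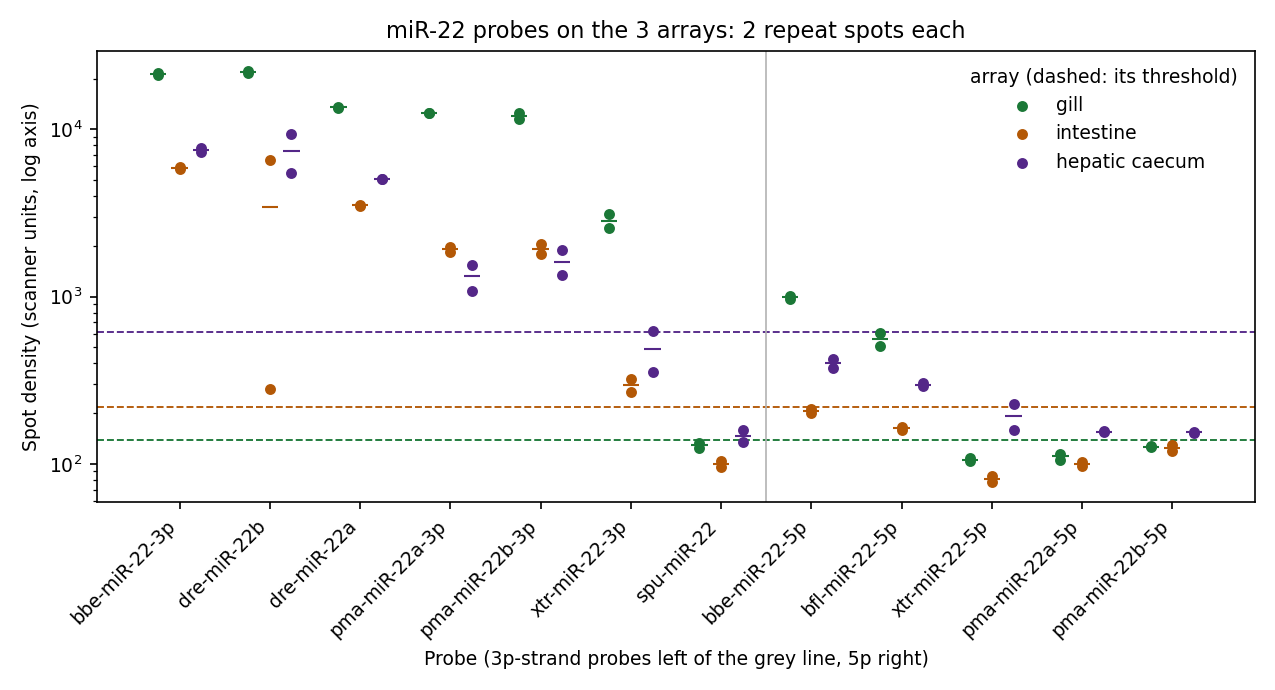
Density of each repeat spot (points) and their mean (short bars) for the 12 miR-22 probes, on a log axis in scanner units, with the detection threshold of each array as a dashed line in its colour. The gill spots of bbe-miR-22-3p read 21112 or more and those of the other organs lie between 5822 and 7749, while 1 intestine spot of dre-miR-22b lies far below the other.

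The zebrafish miR-22a probe and both lamprey 3p probes were also detected in every organ. The dre-miR-22a spots read 13388 and 13599 in gill, 3493 and 3546 in intestine, and 5034 and 5032 in hepatic caecum. This probe differs from the B. belcheri target by A11C and G18A and showed the same order of organs. The pma-miR-22a-3p spots read 12530 and 12485 in gill, 1843 and 1982 in intestine, and 1553 and 1086 in hepatic caecum. Here intestine exceeded hepatic caecum, the opposite of bbe-miR-22-3p. The other lamprey probe, pma-miR-22b-3p, had 11982 ± 724 in gill, 1919 ± 188 in intestine and 1618 ± 398 in hepatic caecum, and its intestine and hepatic caecum spots overlapped.

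The frog probe was detected in gill and intestine. The xtr-miR-22-3p spots read 3098 and 2566 in gill, 268 and 321 in intestine, and 623 and 356 in hepatic caecum. It shares A11U with dre-miR-22b and G18A with dre-miR-22a, and both of those had higher mean densities on all 3 arrays. In hepatic caecum 1 of its 2 spots passed the threshold and their mean did not. The sea urchin probe spu-miR-22 stayed under the threshold in all 3 organs, at 129 ± 6.7, 99.6 ± 5.7 and 147 ± 18.

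Repeat spots agreed closely for most members, and 1 probe failed to repeat. For dre-miR-22b the gill spots read 21601 and 22210, the intestine spots 282 and 6557, and the hepatic caecum spots 5472 and 9328. The intestine pair differed 23.2-fold, the largest ratio among the 201 probes detected on that array, of which 13 differed over 2-fold. The brighter spot lies beside those of bbe-miR-22-3p, and the dimmer one lies near the threshold. The only neighbouring spot whose own repeat was detected, dre-miR-22a directly above the dim spot, read 0.985 times its repeat. Beside the dim spot in the same row, dre-miR-489 read 260 against 96.5 at its repeat, a ratio of 2.69. In the authors' deposited table the intestine value of dre-miR-22b was 9489, which is 1.47 times the blank-subtracted brighter spot and 2.87 times the blank-subtracted mean. For the other 5 members detected in intestine the ratio to the mean ran from 1.43 for bbe-miR-22-3p to 2.42 for xtr-miR-22-3p. Apart from dre-miR-22b, the detected members had repeat spots within 1.21-fold of each other in gill and intestine. In hepatic caecum the median ratio of the 5 detected members was 1.42, beside 1.18 for all 121 detected probes, and the largest was 1.70 for dre-miR-22b.

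Detected members were counted by strand. In gill 8 of the 12 probes were detected, 6 of 7 on the 3p side and 2 of 5 on the 5p side. Those 2 are the amphioxus 5p probes, and the vertebrate 5p probes stand 7 or 8 edits from the B. belcheri target. The 5p counts thus mix strand with match to the B. belcheri sequence. In intestine 6 of 12 were detected, all of them 3p, and in hepatic caecum 5 of 12, again all 3p. Over all miRNA probes the shares detected were 27.0%, 11.9% and 7.18%. In all 3 organs 5 members were detected, beside 111 other probes of the 1686. Not detected in any organ were spu-miR-22, xtr-miR-22-5p, pma-miR-22a-5p and pma-miR-22b-5p.

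The 5p strand was read by its amphioxus probes in gill. The bbe-miR-22-5p spots read 971 and 1013 in gill, 200 and 212 in intestine, and 425 and 376 in hepatic caecum. Its density was highest in gill, and in both gut organs the probe was not above the threshold. By rank within each array it stood at 193 in gill, 214 in intestine and 167 in hepatic caecum. Its gill density of 992 exceeded the thresholds of all 3 arrays before any scaling between arrays. Without normalization, probes detected in both had a median log2 difference from gill of -1.62 in intestine and -1.77 in hepatic caecum. The part of this shift in the missed detection was not tested. The bfl-miR-22-5p spots read 509 and 609 in gill, 166 and 160 in intestine, and 292 and 303 in hepatic caecum. That gill mean of 559 lies above the intestine threshold and below that of hepatic caecum. Detection in gill alone held under the main threshold. With 2 SDs in place of 3, 7 members passed in intestine, bbe-miR-22-5p among them, beside 240 of all 1686 probes. With a threshold from the median and MAD (median absolute deviation) of the blank spots, 8 members passed in intestine and 8 in hepatic caecum. Both amphioxus 5p probes were among these members in each organ. Of all 1686 probes 321 passed in intestine in place of 201, and 320 in hepatic caecum in place of 121. The 3 vertebrate 5p probes had densities between 81.2 and 193 and were detected nowhere.

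Ranks place these readings within each organ. The 6 detected 3p probes held ranks 42 to 129 in gill and 40 to 169 in intestine, and the 5 detected in hepatic caecum held ranks 27 to 86. The bbe-miR-22-5p probe ranked 193 in gill, 214 in intestine and 167 in hepatic caecum, and bfl-miR-22-5p ranked 224, 264 and 225. Ranks from single spots barely moved for bbe-miR-22-3p, at 44 and 44 in gill, 39 and 40 in intestine and 28 and 27 in hepatic caecum. For dre-miR-22b in intestine they were 171 and 35.

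**Figure D2:**
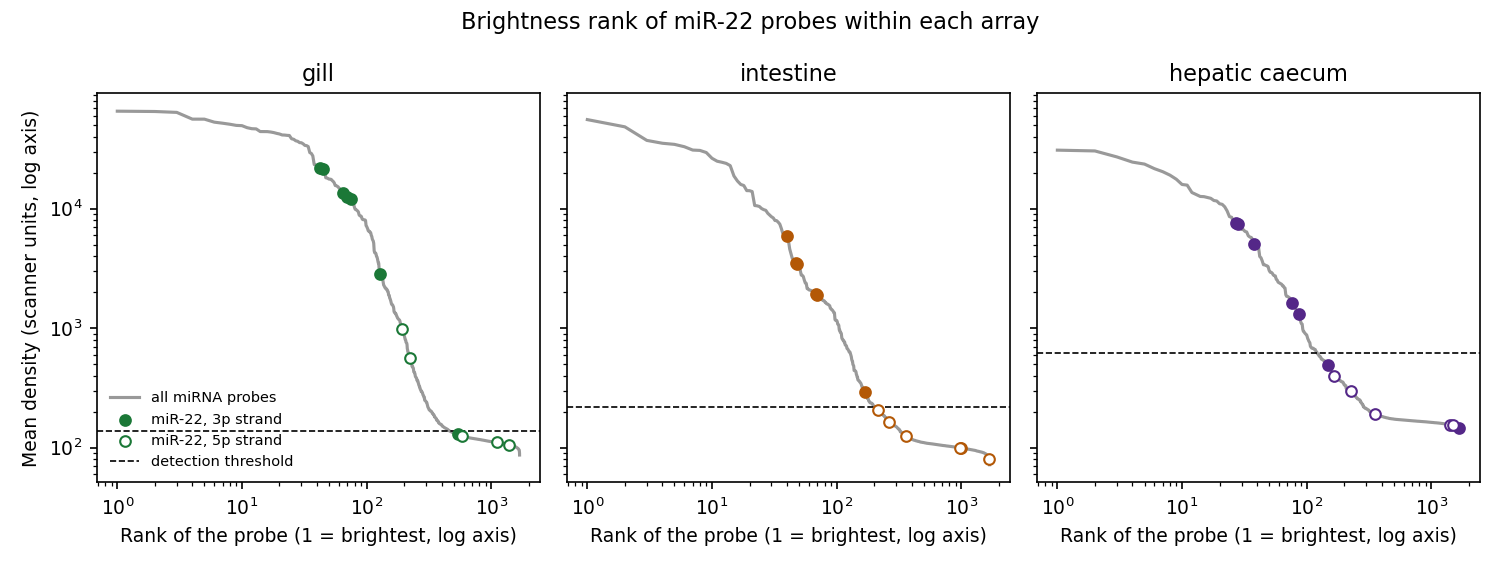
Mean density against brightness rank for the 1686 miRNA probes of each array (grey line, both axes logarithmic), with 3p (filled) and 5p (open) miR-22 probes marked and the detection threshold dashed. The B. belcheri 3p probe stands at rank 45, 40 and 27 in gill, intestine and hepatic caecum, and the 5p probes lie lower on each curve.

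By its best probe miR-22 was brighter than most families on a list of those found across bilaterian animals, which does not include miR-22. Of 30 such families on the array, 6 had a brighter best probe than miR-22 in gill, 7 in intestine and 6 in hepatic caecum. The families miR-125, let-7, miR-100, miR-10 and miR-29 were above it on all 3 arrays, whereas miR-92 was above it in gill only and miR-34 in intestine only, and miR-31 in both gut organs. Among all 667 families, 11, 15 and 11 had a brighter best probe. Families differ in their number of probes, so these counts describe spots. Markers known from vertebrates were also read. Whether amphioxus has each of these miRNAs was not tested, so those not detected give no check of the organs. Those of intestinal epithelium (miR-192, miR-194, miR-215), liver (miR-122) and blood cells (miR-451, miR-223, miR-142) were detected on no array. The muscle miRNAs miR-1, miR-133 and miR-206 passed with 15 of 35 probes in gill, 4 in intestine and 0 in hepatic caecum. The neuronal miR-124 and miR-9 passed with 8 of 22, 1 and 1. Over all miRNA probes the shares detected were 27.0%, 11.9% and 7.18%, under thresholds of 139, 220 and 618. These counts therefore do not compare the organs. The brightest muscle probe read 748, 726 and 272, and the brightest neuronal probe 1882, 245 and 894. The part of these markers in the miR-22 densities was not tested.

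Intestine was then compared with gill. Densities were corrected for background with the normexp method, put on the log2 scale and quantile-normalized over the arrays, and a difference was called at 2-fold, a log2 difference of 1, among probes detected in both organs. For bbe-miR-22-3p the difference was 0.44 ± 0.03, close to the median of 0.45 over the 197 probes detected in both. For dre-miR-22a it was 0.64 ± 0.02, for pma-miR-22a-3p 0.04 ± 0.07, for pma-miR-22b-3p 0.25 ± 0.17 and for xtr-miR-22-3p -0.99 ± 0.28. The value of dre-miR-22b, -1.78 ± 3.29, was smaller than its spot error and became 0.37 from the second repeat spots alone. Of the 6 members 0 were called higher, against 39.6% of the probes detected in both, and 1 lower (dre-miR-22b), against 21.8%. The median of the 6 members was 0.15.

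That small difference rested on the scaling. Without normalization between arrays bbe-miR-22-3p was lower in intestine by a log2 difference of -1.87, a 3.64-fold lower density, and all 6 members were lower, with a median of -2.69. Of the 197 probes detected in both, 154 were also lower. The median over all 197 moved as well, to -1.62. Relative to that median bbe-miR-22-3p stood between -0.52 and -0.02 under the 7 scalings tried. It thus lay at or below the median of the probes, by less than 2-fold. Under quantile normalization its offset of -0.02 was within the spot error of 0.03. The lamprey probe pma-miR-22a-3p stood at -1.10 to -0.41 and xtr-miR-22-3p at -1.75 to -1.03 relative to the same median. For the 5p strand only bounds apply, since under the main threshold it was detected in gill alone. Set against the intestine threshold and before any scaling between arrays, the gill density of bbe-miR-22-5p was at least 4.51-fold higher and that of bfl-miR-22-5p at least 2.54-fold higher. These folds include the shift of the whole array, a median of -1.62 over the probes detected in both. After quantile normalization the fitted levels of bbe-miR-22-5p and bfl-miR-22-5p in intestine minus gill were -0.24 and -0.40, which are no bounds.

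The same comparison was made between hepatic caecum and gill. The log2 difference of bbe-miR-22-3p was 1.12 ± 0.07 and that of dre-miR-22a 1.22 ± 0.02, the 2 members called higher of 5 detected in both, beside 41.0% of the 117 probes detected in both. The share of all these probes called lower was 9.40%, and 0 members were. For dre-miR-22b the difference was 0.92 ± 0.55, for pma-miR-22b-3p 0.01 ± 0.39 and for pma-miR-22a-3p -0.35 ± 0.39. Without normalization between arrays bbe-miR-22-3p and dre-miR-22a changed sign, to -1.52 and -1.44. All 5 members were then lower in hepatic caecum, with a median of -1.63 in place of 0.92. So were 104 of the 117 probes detected in both, and the median of the 117 moved from 0.70 to -1.77. The calls of bbe-miR-22-3p and dre-miR-22a were made under 1 of the 7 scalings, and under 4 of them both probes were at least 2-fold lower. From the second repeat spots alone bbe-miR-22-3p was at 0.99, short of the call. Relative to the median of all probes detected in both, bbe-miR-22-3p stood between 0.03 and 0.42 and dre-miR-22a between 0.23 and 0.52 under the 7 scalings. Relative to that median pma-miR-22a-3p stood between -1.59 and -1.05 and pma-miR-22b-3p between -1.21 and -0.69. Probes detected in gill alone of this pair gave bounds. Against the hepatic caecum threshold and before any scaling, the gill density of xtr-miR-22-3p was at least 4.58-fold higher and that of bbe-miR-22-5p at least 1.61-fold higher. These folds include the shift of the whole array, a median of -1.77 over the probes detected in both. For bfl-miR-22-5p no fold could be bounded. After quantile normalization the fitted levels of bbe-miR-22-5p and bfl-miR-22-5p in hepatic caecum minus gill had the opposite sign, at 0.68 and 0.47, and that of xtr-miR-22-3p was -0.50.

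The gut organs were compared last. The log2 difference of hepatic caecum over intestine was 0.68 ± 0.07 for bbe-miR-22-3p, 0.58 ± 0.02 for dre-miR-22a, -0.24 ± 0.40 for pma-miR-22b-3p and -0.40 ± 0.40 for pma-miR-22a-3p. Each was under 2-fold. The 1 member called higher of 5, beside 24.1% of the 116 probes detected in both, was dre-miR-22b at 2.71 ± 3.34, where the intestine spot that failed to repeat entered, and from the second spots alone its difference was 0.64. None of the 5 was called lower (0, beside 12.1%). The median of the 5 members was 0.58, and without dre-miR-22b it was 0.17. Between these organs bbe-miR-22-3p kept a positive difference under 6 of the 7 scalings, the exception being 5S rRNA at -0.65, and stood 0.36 to 0.46 above the median of all probes under all 7.

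**Figure D3:**
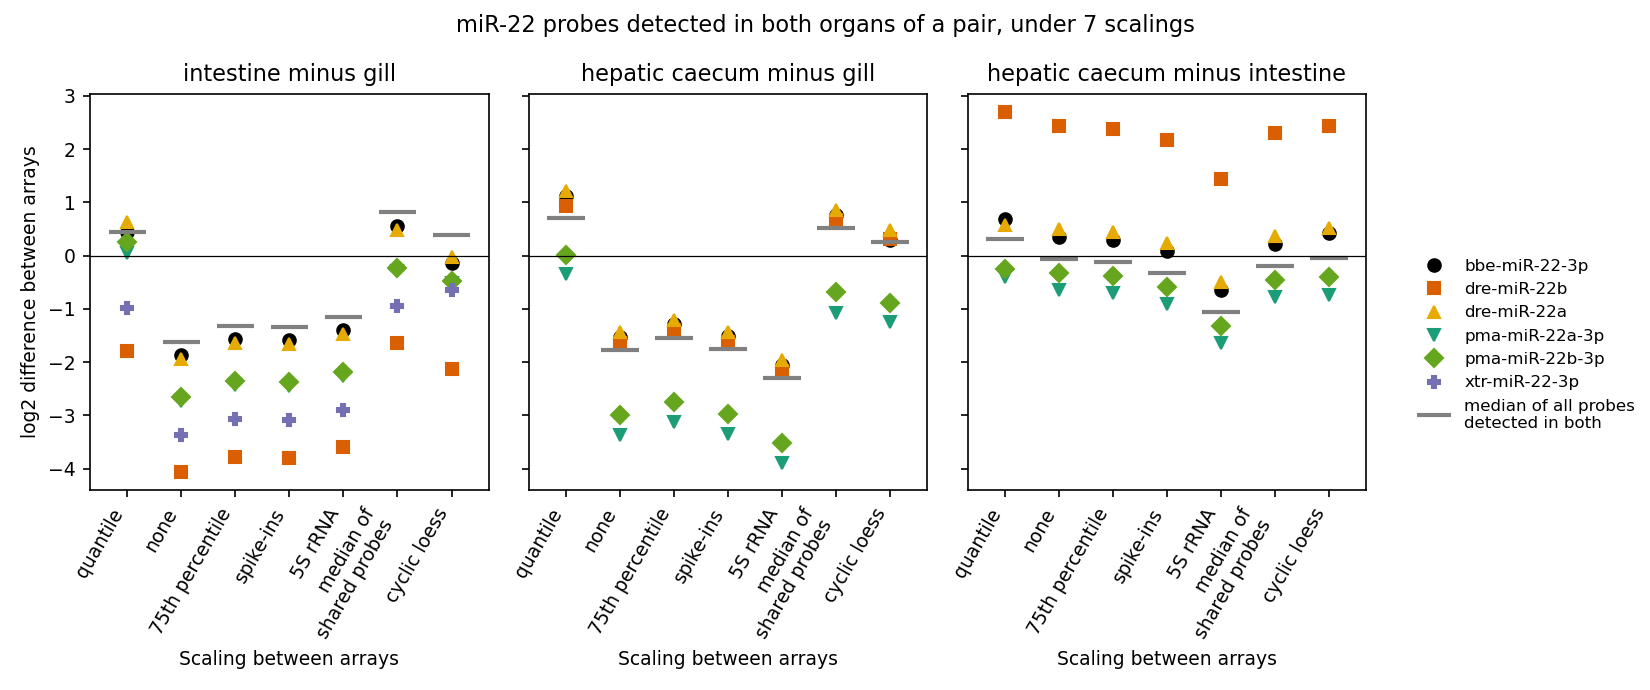
The log2 difference between arrays (vertical axis) of the miR-22 probes detected in both organs of a pair, under 7 scalings between arrays, with the median of all probes detected in both as a grey bar. In both comparisons with gill the whole group moves with the scaling, and the lamprey probes lie below bbe-miR-22-3p in every panel.

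The probes of the 3p strand did not give the same difference between organs. Set against bbe-miR-22-3p, the difference of pma-miR-22a-3p was lower by more than 2 spot SDs in all 3 comparisons and under all 7 scalings. The gap in log2 ran from -0.85 to -0.39 for intestine over gill, from -1.84 to -1.47 for hepatic caecum over gill and from -1.15 to -0.98 for hepatic caecum over intestine. For pma-miR-22b-3p the gap in hepatic caecum over gill ran from -1.46 to -1.11 and exceeded 2 spot SDs under all 7 scalings. Its gap in intestine over gill, -0.79 to -0.18, did so under 6 of 7, and that in hepatic caecum over intestine, -0.92 to -0.67, under 2 of 7. For xtr-miR-22-3p the gap in intestine over gill ran from -1.50 to -0.51 and exceeded 2 spot SDs under 6 of 7. Scaling by 1 factor per array cannot change such a gap, and 5 of the 7 scalings are of that kind. The difference of dre-miR-22a stayed within 0.20 of that of bbe-miR-22-3p in all 3 comparisons and under all 7 scalings. That smaller gap exceeded 2 spot SDs under 2, 1 and 5 of the 7. The probe with A11U alone, dre-miR-22b, had a gap of -0.19 to 0.02 in hepatic caecum over gill, where its spot SD was 0.56. The lamprey and frog probes carry A11U with another substitution, and dre-miR-22a carries A11C in place of A11U. With 1 array per organ, the part of the match between probe and RNA in these gaps was not tested.

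Likeness to the B. belcheri 3p probe was measured as the Euclidean distance between log2 levels centred on their mean over the 3 arrays. The nearest names among 111 other probes detected on all arrays were bfl-miR-2067 at 0.18, bbe-miR-200a-5p at 0.23 and pma-let-7c at 0.24. Densities of bfl-miR-2067 were 22661 ± 250 in gill, 6190 ± 105 in intestine and 8582 ± 344 in hepatic caecum. Those of bbe-miR-200a-5p were 9526 ± 550, 1637 ± 101 and 3038 ± 735, and those of pma-let-7c 35682 ± 6752, 17034 ± 7059 and 15931 ± 4332. Among the members dre-miR-22a lay nearest by the mean of the spots, at 0.14, with 0 other probes closer. From the first and second spots alone it lay at 0.21 and 0.22, with 1 and 3 other probes closer. By the mean of the spots 53 other probes lay closer than pma-miR-22a-3p at 1.08. The distance of dre-miR-22b, 1.74 with 77 other probes closer, held the intestine spot that failed to repeat, and it was 3.17 from the first spots alone and 0.06 from the second. A distance over 3 arrays of single samples is a description of these arrays.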

How the data were processed

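Per the labels' protocols, RNA under 300 nt was given a poly(A) tail and a tag and stained with Cy3. The authors deposited scanner files with a linear intensity, the median density per spot, for 3968 spots per array, and per the file headers these are 1-colour values. Background had not been subtracted, as the blank spots show. The authors also deposited a table of processed intensity values, with column medians of 6.88, 5.33 and 5.41 for gill, intestine and hepatic caecum. Its scaling and centring are not given in the sources used here, and it follows the unturned names of the hepatic caecum. No column lacked a sample (0 columns).

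Spot values were corrected by normexp (offset 50, all spots), put on the log2 scale and averaged over 2 spots. They were then quantile-normalized over the 1686 miRNA probes of the 3 arrays with limma 3.58.1 in R 4.3.3. The steps were also run on simulated noisy copies of the gill array, each scaled by 1 factor. Such copies do not show how the steps act on real arrays that differ in their detected probes. Python 3.11.15 made the other tables. Errors of log2 differences combine the spot SDs of both arrays, taken before normalization between arrays, as the square root of their summed squares. For a probe detected in 1 organ of a pair, a lower bound of the fold was its density there over the detection threshold of the other array, before any scaling. This was chosen after seeing the data, in place of a bound on fitted levels whose floor could lie at the probe's own level. Alternatives covered scaling, background, detection rule, repeat spots, grid placement and the deposited table. Named were all detected and all amphioxus members, and the 3 most similar names. The members and lists were chosen with earlier results of these data known. The number of arrays limits the precision.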

Additional observations from a re-analysis of the deposited data

How the results depend on the processing

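No paired analysis was possible because each organ has 1 array. The counts of members detected stayed within 1.5 times the reported ones in 17 of 20 alternatives. The exceptions were in hepatic caecum, with 8 members under the threshold from the median and MAD of the blank spots, 0 under the deposited names and 0 with the rows mirrored. In intestine the threshold from the median and MAD gave 8 members in place of 6. Over all 1686 probes that threshold passed 321 in intestine in place of 201, and 320 in hepatic caecum in place of 121. In hepatic caecum 4 of all probes passed under the deposited names and 90 with the rows mirrored.

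The medians of the members turned with the scaling. For intestine minus gill the median of 0.15 became -2.69 without normalization between arrays, -2.40 with the 75th percentile, -2.41 with spike-ins, -2.22 with 5S rRNA, -0.26 with the median of shared probes, -0.50 with cyclic loess, -0.35 in the deposited table and -0.08 over all 12 members, and 0.01 and 0.29 from the first and second spots. For hepatic caecum minus gill the median of 0.92 became, in the same order of scalings, -1.63, -1.39, -1.62 and -2.16, then 0.28 with cyclic loess, 0.38 from the first spots, 0.24 over all 12 members, -8.24 in the deposited table and -5.49 under the deposited names. For hepatic caecum minus intestine the median of 0.58 became 0.08 with spike-ins, -0.65 with 5S rRNA, -7.93 in the deposited table and -5.57 under the deposited names. Leaving out dre-miR-22b, an alternative chosen after seeing the data, moved it to 0.17. The other 20 of 44 alternatives kept the sign and stayed within the spot error of the members.

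Of 186 values for single probes, 75 stayed within the spot error, 96 moved beyond it and 15 reversed a call. In hepatic caecum minus gill bbe-miR-22-3p became -1.52 without normalization, -1.28 with the 75th percentile, -1.51 with spike-ins, -2.05 with 5S rRNA, -6.40 in the deposited table and -5.90 under the deposited names. In that order dre-miR-22a became -1.44, -1.20, -1.43, -1.97, -7.86 and -5.41. The probe dre-miR-22b became 0.37 in intestine minus gill from the second spots, and in hepatic caecum minus intestine -9.29 in the deposited table and -4.66 under the deposited names. The cause was not tested, except that deposited names give other spots to each probe. In gill and intestine the deposited table moved 5 of 14 ranks beyond the range from single spots, for instance bbe-miR-22-3p to 43 in intestine, and it moved all 5 ranks in hepatic caecum. Dim signal limits the 5p strand in both gut organs and xtr-miR-22-3p in hepatic caecum.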
